A study of Canis lupus familiaris with 5 samples.

Results

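The genes described are 6 components of cyclic nucleotide and angiotensin receptor signaling in the heart, namely GNAS, PRKACA, PRKAR1A, PPP1R1A, NPR1 and AGTR1, followed through 11 probe sets. They were chosen by gene symbol, as every probe set whose only symbol in the platform annotation was one of the 6. They make up 6 of 2416 named genes and 11 of 4601 probe sets other than array controls. Transcripts were measured in canine myocardium on 5 oligonucleotide arrays, 3 from dogs with congestive heart failure (failing 1a, 1b and 2a) and 2 from control dogs (control 1a and 2a). Each array other than control 1a carried a pool of RNA from 3 dogs, and the labels do not describe the RNA on control 1a. The cause of the failure, the breed, age and sex of the dogs and the chamber sampled are not given in the sources used here, nor whether failing 1a and 1b carried separate pools. The p-values given here therefore reflect array-to-array spread that may be technical.

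In the heart, beta-adrenergic and other receptors act through the stimulatory G protein, whose alpha subunit is encoded by GNAS, to make adenylyl cyclase produce cAMP. cAMP releases the catalytic subunits of protein kinase A (PRKACA) from its regulatory subunits (PRKAR1A among them), and the kinase phosphorylates calcium-handling and contractile proteins. PPP1R1A encodes inhibitor-1, which blocks protein phosphatase 1 once protein kinase A has phosphorylated it and so prolongs those phosphorylations. A parallel pathway uses cGMP, made by NPR1, the receptor guanylyl cyclase for atrial and B-type natriuretic peptides, while AGTR1, the type 1 angiotensin II receptor, couples mainly to Gq and drives vasoconstriction and growth responses.

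The values are linear intensities on the deposited scale, and 34.8% to 40.1% of probe sets lay below 0 on a given array, where no level can be read. Failing 2a had the widest spread of intensities. Its interquartile range was 1859, against 1235 and 1244 on the other failing arrays and 1154 and 1216 on the control arrays. It held the highest or the lowest of the 5 values at 71.4% of probe sets, and at 9 of the 11 described here. The heart muscle markers on the array were bright. All 8 of them passed the brightness filter used for testing, and TNNC1, cardiac troponin C, read between 33092 and 37213 on every array. The probe sets were annotated with human genes while the RNA came from dog.

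None of the 6 genes passed the test for a difference between failing and control myocardium. A gene was tested through its brightest probe set, on log2 of intensities raised to a floor of 20, if that probe set was at or above the median brightness of the table. This left 5 of the 6 genes (AGTR1 was too dim) and 7 of the 11 probe sets. limma with Benjamini-Hochberg adjustment called 0 of the 5 genes, 0 of them also at an unadjusted p under 0.05, and it called 0.069% of the 1449 genes tested (1 gene) and 10.5% at that unadjusted level. Fitted probe set by probe set, 0 of the 7 were called, against 0.0869% of 2301 tested, and 0 of the 7 had an unadjusted p under 0.05. At 1 of the 11 probe sets, for NPR1, every failing array lay above both control arrays, as at 13.1% of all probe sets. At 2 of them, for PPP1R1A and for 1 of 3 of PRKACA, every failing array lay below, as at 13.4% of all probe sets. The groups thus did not overlap at 3 of the 11 probe sets, against 26.5% of the whole table, and for 2 of the 5 tested genes, against 31.4% of all tested genes.

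**Figure D1:**
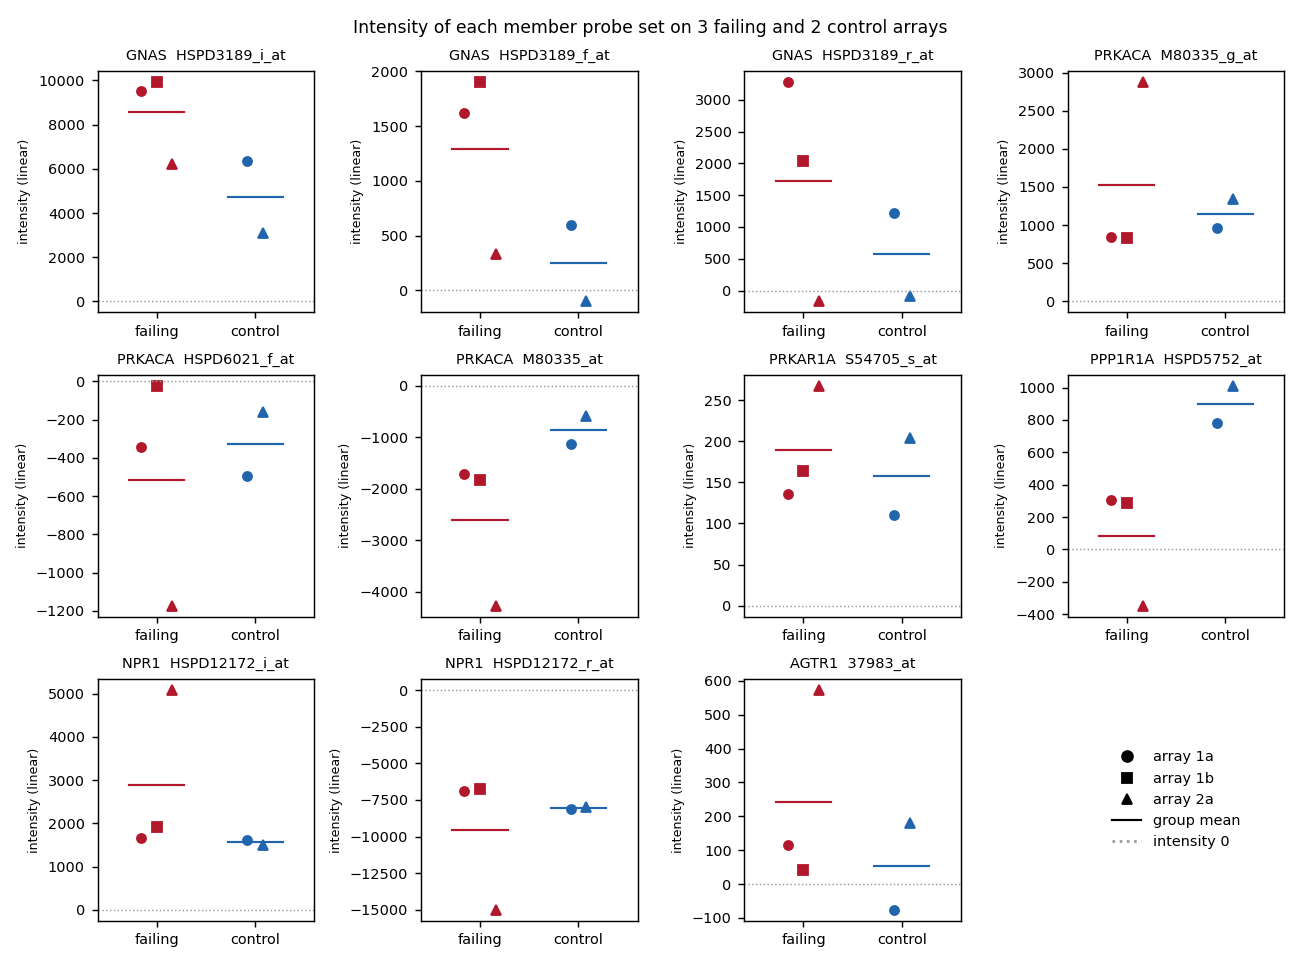
Linear intensity (vertical axis, own scale in each panel) of each of the 11 probe sets on the 3 failing arrays (red, left) and 2 control arrays (blue, right); symbols mark arrays 1a, 1b and 2a, bars mark group means and the dotted line marks 0. At all 3 GNAS probe sets failing 1a and 1b lie above both control arrays while failing 2a does not, and at the PRKACA, PRKAR1A, PPP1R1A, NPR1 and AGTR1 probe sets failing 2a is the highest or lowest array.

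GNAS, the stimulatory G protein alpha subunit, was brighter on average in failing myocardium, with overlapping groups. Its brightest probe set, HSPD3189_i_at, read 9509.7, 9948 and 6208 on failing 1a, 1b and 2a, against 6352 and 3078 on control 1a and 2a. Failing 1a and 1b were above both control arrays, and failing 2a was just below control 1a. The group means were 8555 ± 2045 in failing and 4715 ± 2315 in control myocardium (SD, n = 3 and 2). The log2 fold change was 0.92 ± 0.39 (SE), a 1.89-fold difference with a 95% confidence interval from 0.963 to 3.72, and the adjusted p in limma was 0.474. The difference leaned on control 2a, the dimmest array for this gene, since it was 0.40 without control 2a and 1.44 without control 1a.

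The other GNAS probe sets were dimmer and showed the same order of arrays in part. HSPD3189_f_at, of the kind that may detect a family of related sequences, read 1619.7, 1905 and 336 on failing 1a, 1b and 2a, against 597 and −100.2 on control 1a and 2a. HSPD3189_r_at, chosen with relaxed probe selection rules, read 3285, 2040.1 and −169 on the failing arrays, against 1226 and −77.2 on the control arrays. At both, failing 1a and 1b again exceeded both control arrays and control 1a exceeded control 2a. Failing 2a lay between the control arrays at HSPD3189_f_at and below both at HSPD3189_r_at. On floored values the log2 fold changes were 3.21 ± 1.66 and 1.71 ± 2.86 (SE, adjusted p in limma = 0.608 and 0.883), and since a control array lay below the floor at each, no fold is given. HSPD3189_r_at changed sign to −1.26 without control 2a. All 3 GNAS probe sets had a positive log2 fold change. Among the 63 genes with exactly 3 tested probe sets, the sign was the same at all 3 in 12 (19.0%).

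The catalytic subunit gene PRKACA gave no clear difference at the 1 probe set that could be read. M80335_g_at had intensities of 848, 835 and 2882 on failing 1a, 1b and 2a, against 966 and 1338 on control 1a and 2a. Failing 1a and 1b were the dimmest arrays and failing 2a the brightest, so the control values lay between those of the failing arrays. The log2 fold change was 0.16 ± 0.65 (SE, adjusted p in limma = 0.955), with a 95% confidence interval of the fold from 0.361 to 3.45. It was −0.43 without failing 2a and −0.08 without control 1a. Both other probe sets lay below 0 on all arrays. M80335_at, named for the same source sequence, read −1709, −1836 and −4272 on the failing arrays, against −1124 and −585 on the control arrays. The failing arrays were all the more negative there (two-sided exact permutation p = 0.2, the smallest that 3 arrays against 2 can give), and a value below 0 gives no transcript level. HSPD6021_f_at read from −1172 to −23.2 on the failing arrays and from −494 to −158 on the control arrays.

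PRKAR1A, the type I-alpha regulatory subunit that holds the kinase inactive, was dim and did not separate the groups. Its single probe set, S54705_s_at, read 136, 164 and 268 on failing 1a, 1b and 2a, against 110.01 and 205 on control 1a and 2a. The groups interleaved, with failing 2a the highest and control 1a the lowest. The means were 189 ± 69.4 in failing and 157 ± 66.9 in control myocardium (SD, n = 3 and 2), and the log2 fold change was 0.27 ± 1.03 (SE, adjusted p in limma = 0.949). The 95% confidence interval of the fold, from 0.203 to 7.17, spans differences of several-fold in either direction. The sign turned without failing 2a (−0.01) and without control 1a (−0.18).

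PPP1R1A, the phosphatase inhibitor, was dimmer on all 3 failing arrays than on both control arrays. Its single probe set, HSPD5752_at, read 303, 287 and −347 on failing 1a, 1b and 2a, against 782 and 1011 on control 1a and 2a. The failing arrays did not overlap with the control arrays, and failing 1a and 1b lay close together while failing 2a was below 0. The group means were 81.1 ± 371 in failing and 896.5 ± 162 in control myocardium (SD, n = 3 and 2; two-sided exact permutation p = 0.2, the smallest possible). On floored values the log2 fold change was −2.89 ± 1.43 (SE, adjusted p in limma = 0.545), and its size depends on the floor because failing 2a lay under it. Without failing 2a, where every value was above the floor, the mean of failing 1a and 1b was 295 against the control mean of 896.5, a ratio of 0.329. In that fit the log2 fold change was −1.59 ± 0.39 (SE, adjusted p in limma = 0.172, unadjusted p = 0.0130), from 2 failing arrays that may carry the same pool. Of the 1441 genes tested without failing 2a, 234 had an unadjusted p under 0.05 in limma. The heart muscle marker list also leaned downward. Negative log2 fold changes were found for 5 of its 8 tested genes, against 40.4% of all genes. Of the rest, CKM and TNNC1 had 0.16 and 0.02, with overlapping groups. For 4 of the 8 all failing values were under both control values, against 11.8% of all genes, while ACTN2, alpha-actinin 2, lay above on every failing array. Of these markers, 0 were below the floor on all 5 arrays. The summed intensity of the list ranged from 139060 to 159136 on the failing arrays and from 173334 to 179529 on the control arrays. The largest part of this gap was MYH6, a myosin heavy chain, with means of 34504 in failing and 49947 in control myocardium. DES, listed with smooth muscle below but also expressed by heart muscle, was higher on every failing array. In bulk tissue fewer cells of a type and less RNA per cell cannot be told apart, and the part of muscle content in the PPP1R1A values was not tested.

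NPR1, the natriuretic peptide receptor, was brighter on every failing array, by a margin that came largely from failing 2a. HSPD12172_i_at read 1657, 1926 and 5086 on failing 1a, 1b and 2a, against 1610.2 and 1505 on control 1a and 2a. The groups did not overlap, but failing 1a exceeded control 1a by little, and failing 2a was far above all others. The means were 2890 ± 1907 in failing and 1557 ± 74.5 in control myocardium (SD, n = 3 and 2; two-sided exact permutation p = 0.2, the smallest possible). The log2 fold change was 0.70 ± 0.54 (SE, adjusted p in limma = 0.721), a 1.63-fold difference with a 95% confidence interval from 0.642 to 4.12. Without failing 2a it was 0.20 ± 0.21 (SE, adjusted p in limma = 0.670), and the mean of failing 1a and 1b was 1.15 times the control mean. The second probe set, HSPD12172_r_at, lay far below 0 on all arrays, at −6916, −6771 and −15000 in failing and −8128 and −7985 in control myocardium, so it gives no level to set beside the first.

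NPR1 is known to be expressed in vascular endothelium, and the endothelial marker list leaned in the same direction. The 6 endothelial markers that were tested all showed positive log2 fold changes, against 59.6% of all genes. Their median was 0.99, against 0.15 over all genes. Of the 6, 4 lay above control on every failing array, against 19.6% of all genes. Over the 7 markers on the array the summed intensity was 7229, 6983 and 12949 on failing 1a, 1b and 2a and 5014 and 6109.7 on control 1a and 2a. The sum was highest on failing 2a, as was NPR1, through AQP1, aquaporin 1, and ENG, endoglin, which read 4270 and 6162 there. The members differed in this. VWF, von Willebrand factor, read 1414, 1391 and 926 on failing 1a, 1b and 2a, against 787 and 577 on control 1a and 2a. CDH5, VE-cadherin, read 311, 548 and 284 on the failing arrays, against 34.5 and 138 on the control arrays. Both were thus lowest on failing 2a among the failing arrays, as was the untested PECAM1, and TEK was highest on control 2a. Of these markers, 0 were below the floor on all 5 arrays. The part of endothelial content in the NPR1 values was not tested.

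AGTR1, the angiotensin receptor, was too dim to be tested. Its single probe set read 114, 41.4 and 573 on failing 1a, 1b and 2a, against −75.8 and 180.1 on control 1a and 2a. The groups overlapped, with control 2a above failing 1a and 1b, and the value of failing 2a was by far the highest. The means were 243 ± 288 in failing and 52.2 ± 181 in control myocardium (SD, n = 3 and 2; two-sided exact permutation p = 0.6). With the floor of 20 the difference of mean log2 intensities was 1.22. It was 0.20 without failing 2a and −0.37 without control 1a, so no direction can be given for AGTR1 at this signal. AGTR1 is known to be expressed in vascular smooth muscle and fibroblasts. In the fibroblast list 6 of 7 tested markers were above 0, against 59.6% of all genes. For 2 of the 7 every failing array lay above control, against 19.6% of all genes. The list had a summed intensity of 5735, 5651 and 7759 on failing 1a, 1b and 2a and 4628 and 2752 on control 1a and 2a. That sum was highest on failing 2a, as for AGTR1 and as at 33.2% of all probe sets. The members differed in this. COL1A1, LUM, POSTN and PDGFRA were highest on failing 2a. COL3A1 and COL1A2, the markers above control on every failing array, were lowest there among the failing arrays. The 6 smooth muscle and pericyte markers on the array gave values of both signs or none. CNN1 and PDGFRB were below the floor on all arrays, and ACTA2 on 3 of 5. TAGLN, transgelin, read 1710, 1888 and 1068 on failing 1a, 1b and 2a, against 3046.5 and 3048 on control 1a and 2a, so every failing array was lower (log2 fold change −1.01 ± 0.34, SE, adjusted p in limma = 0.427). LMOD1, leiomodin 1, had 0.95 ± 0.39 and DES, desmin, which heart muscle also expresses, 0.87 ± 0.32, both higher on every failing array (adjusted p in limma = 0.472 and 0.454). Of all tested genes, 19.6% were higher on every failing array and 11.8% were lower. The summed intensity of the list was 60683, 85619 and 66611 on the failing arrays and 53650 and 30599 on the control arrays, and most of it was DES, with 56032, 81232 and 60345 on the failing arrays and 48719 and 25874 on the control arrays. The part of either list in the AGTR1 values was not tested.

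**Figure D2:**
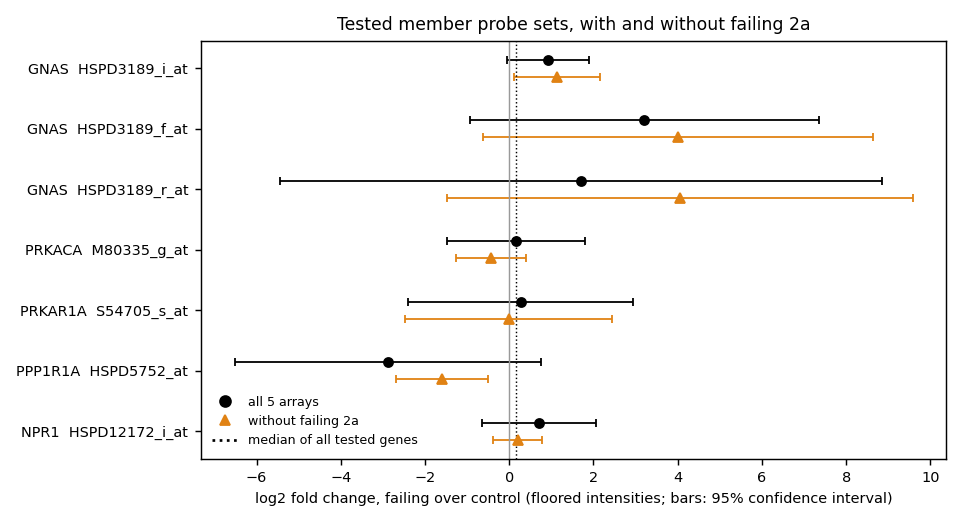
Log2 fold change of failing over control for the 7 tested probe sets (points; bars are 95% confidence intervals) from all 5 arrays (black circles) and without failing 2a (orange triangles); the dotted line marks the median of all tested genes, 0.15. With all 5 arrays every interval includes 0. Without failing 2a, NPR1 moves to 0.20, PRKACA to −0.43, PRKAR1A to −0.01 and PPP1R1A to −1.59. GNAS moves to 1.14 at HSPD3189_i_at and, on floored values, to 4.01 at HSPD3189_f_at and 4.05 at HSPD3189_r_at. The intervals of HSPD3189_i_at and PPP1R1A then leave out 0, and neither passed after adjustment.

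Across the members, the order of the arrays followed 3 patterns. NPR1, PRKACA, PRKAR1A and AGTR1 each had their highest reading on failing 2a, and at NPR1, PRKACA and AGTR1 that reading was well apart from the other 4. GNAS, in contrast, was highest on failing 1a or 1b at each of its probe sets, and PPP1R1A was highest on control 2a and lowest on failing 2a. Of the 11 probe sets, failing 2a was highest at 4 and lowest at 5, against 33.2% and 38.3% of all probe sets. The arrays of failing 1a and 1b, which differed least of all pairs over the tested probe sets (median absolute log2 difference 0.32), gave close values at PPP1R1A and PRKACA M80335_g_at. They lay further apart at GNAS HSPD3189_r_at, with 3285 and 2040.1, and at AGTR1, with 114 and 41.4.

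Agreement between probe sets could be examined only within GNAS. PRKACA and NPR1 each had only 1 probe set above 0, and PRKAR1A, PPP1R1A and AGTR1 each had only 1 in all. Of the 357 genes with at least 2 tested probe sets, 173 (48.5%) had the same sign of the log2 fold change at all of them. In 291 cases a sequence was represented by both an i and an r probe set, as for GNAS and NPR1. The r probe set lay below 0 on all 5 arrays in 63 of these cases (21.6%) and the i probe set in 82 (28.2%). The r probe set alone did so in 50 cases, as for NPR1, and the i probe set alone in 69. The i probe sets hold fewer probes than the design asked for, and neither kind was made for dog sequence.

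The genes of most similar course over the 5 arrays were named by the smallest root mean square difference between centred log2 intensities, among 1448 other tested genes. GNAS was closest to RPS18, a ribosomal protein gene (0.0958), and CCNG1, cyclin G1 (0.187), against a median of 0.825 over all genes. NPR1 was closest to TXN, thioredoxin (0.0997), and TGIF1, a transcriptional repressor (0.108), with a median of 0.756. For PRKACA these were TRIM38 (0.139) and KLF9 (0.167). For PRKAR1A they were S100A11 (0.0814) and SPRR2C (0.0822). The genes named for NPR1, PRKACA and PRKAR1A all had their highest reading on failing 2a, like these members. PPP1R1A was closest to RPL7A (0.525) and FAM110B (0.545), with a median of 2.22 over all genes. The nearest genes lie below the median by construction, and values over 5 arrays describe likeness only.

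Of the other genes of these pathways, 0 of 20 tested passed in either direction. The lists held 193 further symbols, of which 39 were on the array. Of the 20 tested genes 14 had a log2 fold change above 0 and 6 below, against 59.6% above and 40.4% below over all genes. Their median was 0.32, against 0.15 over all genes. All failing arrays lay above control for 4 of them and below for 1, against 19.6% and 11.8% of all genes. An unadjusted p under 0.05 in limma was found for 2 of the 20, against 10.5% of all genes.

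Upstream of cAMP, ADORA2A, an adenosine receptor that couples to the stimulatory G protein, read 1038, 353 and 632 on failing 1a, 1b and 2a, against 1995 and 1560 on control 1a and 2a. Every failing array was below both control arrays, and limma gave −1.52 ± 0.56 on the log2 scale (SE, adjusted p = 0.445). A second probe set, with failing 1b below 0, had 0.32, a mean over both gave −0.60, and the third lay below 0 on all arrays. The adenylyl cyclase gene ADCY2 read 922, 745 and 2420 on the failing arrays, against −478 and 737 on the control arrays, so the separation from control 2a was narrow. Its log2 fold change on floored values was 3.29 ± 1.60 (SE, adjusted p in limma = 0.532), and it was 0.68 without control 1a, the array below 0. CAP2, cyclase-associated protein 2, had −0.34. Among G protein subunits, GNG5 had 0.56 and GNB1 0.35, both with overlapping groups, and GNB2 had 0.02. A second GNG5 probe set had −0.66, also with overlap, and a second GNB1 probe set had 0.66 with every failing array above control. GNAQ and GNAI3, the alpha subunits of Gq and of an inhibitory G protein, were too dim to be tested.

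Among the partners of protein kinase A, the anchoring protein gene AKAP12 was above control on each failing array, with 2134, 1945 and 3087 on failing 1a, 1b and 2a and 1648 and 1495 on control 1a and 2a. Its log2 fold change was 0.58 ± 0.31 (SE, adjusted p in limma = 0.577), and a second probe set had 0.45 with overlapping groups. PKIA, a peptide inhibitor of the kinase, had 0.12 ± 0.31, and its other probe sets were below the floor on all 5 arrays. Substrates of the kinase gave values of both signs. RYR2, the calcium release channel of the sarcoplasmic reticulum, had 0.66 ± 0.60 without overlap of the groups. A second RYR2 probe set was below the floor on 4 of 5 arrays, with overlapping groups. PLN, phospholamban, had 0.63 ± 0.90, FXYD1, phospholemman, 0.31 ± 0.26 (−0.05 at a second probe set), and CACNA1C, the L-type calcium channel pore, −0.34 ± 0.44, each with overlapping groups. The adjusted p in limma of PKIA and these 4 substrates lay between 0.741 and 0.912.

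PPP1CA, a catalytic subunit of protein phosphatase 1 and thus of the enzyme that inhibitor-1 blocks, was brighter on each failing array. It read 1854, 1656 and 1899 on failing 1a, 1b and 2a, against 1214 and 911 on control 1a and 2a. The log2 fold change was 0.77 ± 0.31 (SE, 1.71-fold, unadjusted p = 0.0473, adjusted p in limma = 0.464). Its second probe set had 0.59, with failing 2a below both control arrays. Of the other phosphatase 1 regulators, PPP1R14B had 0.12 (−0.52 and, on floored values, −1.82 at further probe sets) and PPP1R7 −1.69 on floored values. The PPP1R7 value came from 1 negative reading on failing 2a, without which it was 0.16. PPP1R3A, PPP1R3C and PPP1CB were too dim to be tested.

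The remaining steps were thinly covered. GUCY1A1, a subunit of the nitric oxide receptor, was the only other gene of the natriuretic peptide and cGMP list on the array, and it was below the floor on 4 of 5 arrays. Of the phosphodiesterases, which break down cyclic nucleotides, PDE6A was tested (0.77 ± 0.64, adjusted p in limma = 0.742), and PDE3B, PDE4A and PDE7A were too dim. In the angiotensin and Gq list AGT, the angiotensin precursor, lay below 0 on all arrays, and the mineralocorticoid receptor gene NR3C2 had 0.00 ± 0.37. PRKCB, a protein kinase C isoform, had 0.45 and DGKA, a diacylglycerol kinase, −0.24, both with overlapping groups.

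**Figure D3:**
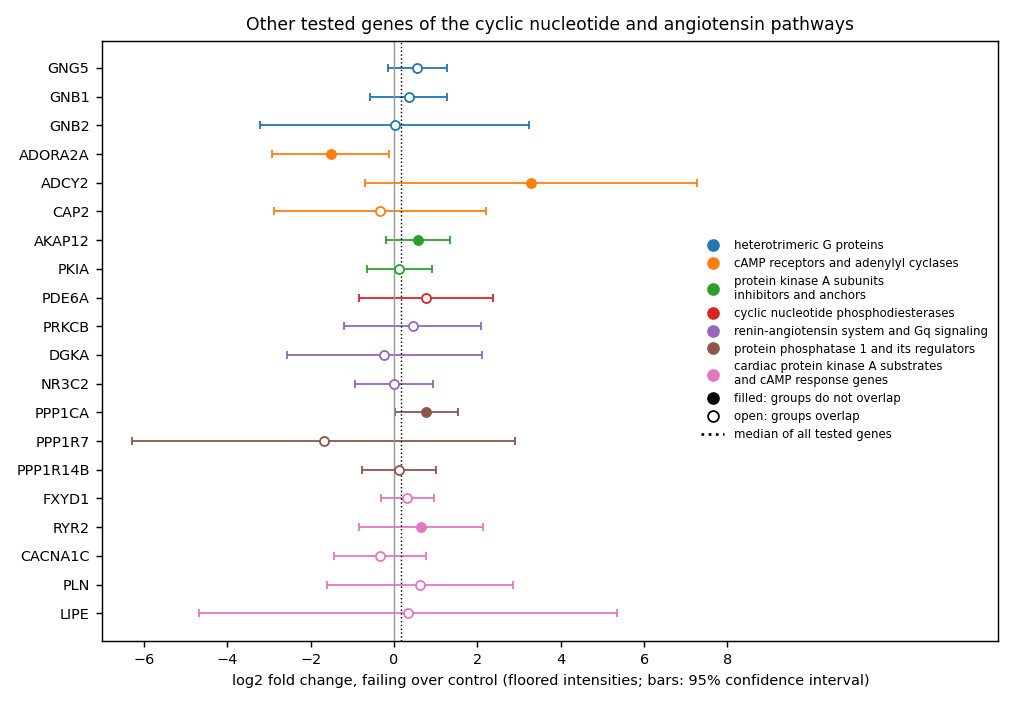
Log2 fold change of failing over control for the 20 other tested pathway genes (points; bars are 95% confidence intervals), coloured by list; filled points mark genes whose groups do not overlap and the dotted line marks the median of all tested genes. ADORA2A at −1.52 and PPP1CA at 0.77 are the genes whose intervals leave out 0, and neither passed after adjustment.

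Of the array controls that measure RNA and labelling, GAPDH did not overlap between the groups and actin did. The 3′ to 5′ signal ratio of the GAPDH array control was 1.42, 1.44 and 1.32 on failing 1a, 1b and 2a, against 2.15 and 2.32 on control 1a and 2a (two-sided exact permutation p = 0.2, the smallest possible). The same ratio for actin was 0.162 ± 0.065 in failing and 0.0992 ± 0.0131 in control myocardium, with overlap (two-sided exact permutation p = 0.6). On every array the 3′ actin signal was weaker than the 5′ signal, so the actin ratio gives no plain reading of RNA quality. The part of RNA and labelling in the values of PPP1R1A, NPR1 and GNAS was not tested.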

How the data were processed

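The authors deposited 1 linear intensity per probe set and array for 4653 probe sets. The labels and the table name no scanner software, background step or scaling, and the labels state only that RNA of 3 dogs was pooled on 4 of the arrays. Columns of other samples numbered 0. Probe sets were named from the platform annotation, and 52 array controls were left out. Values under a floor of 20 were set to it before log2 was taken, and no further scaling was applied. Probe sets with a mean log2 of at least the median (7.13) were tested, and a gene by the brightest of them, with limma 3.58.1 under R 4.3.3. The moderated variance followed intensity (eBayes, trend), and two-sided p-values were adjusted by Benjamini-Hochberg over 1449 genes, or over 2301 probe sets where a further probe set of a gene is given, with a threshold of 0.05. Exact permutation tests of a single probe set's linear values used SciPy 1.17.1. The number of arrays limits the precision.

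The fit was tested on simulated data with independent noise and known changes among 1449 genes. It called 11.6% of log2 changes of 1, 38.1% of 2, 58.7% of 3 and 68.2% of 4. On average 3.7% of its calls were false. A gene that was not called may therefore still differ between the groups. The members and gene lists were chosen with earlier results of these data known. All probe sets of the members are given, and, of the other pathway genes, up to 4 tested genes per list with the smallest p, plus dim genes named only as not tested. Genes of most similar course were the 2 nearest to each tested member. Alternatives covered the floor, the filter, scaling, the probe set of a gene, the intensity trend, linear values, averaging failing 1a and 1b, the number in the titles as a block, and leaving out each array.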

Additional observations from a re-analysis of the deposited data

How the results depend on the processing

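No member and no other pathway gene was called by limma under any of the settings run. PPP1R1A was below 0, and GNAS and NPR1 above 0, in every setting that gave a value. Adjusted p ranged from 0.241 to 0.962 for GNAS, from 0.449 to 0.962 for NPR1 and from 0.172 to 0.962 for PPP1R1A. PRKACA turned to −0.022 with quantile normalization and −0.045 with 75th percentile scaling, which moved the median of all genes to −0.00076 and −0.05, against 0.15 on the deposited scale. Leaving out 1 array gave log2 fold changes from 0.40 to 1.44 for GNAS, 0.20 to 1.01 for NPR1, −0.43 to 0.46 for PRKACA, −0.18 to 0.72 for PRKAR1A, −3.55 to −1.59 for PPP1R1A and −0.37 to 2.80 for AGTR1. With a floor of 1 the AGTR1 difference was 3.38, since control 1a lies below either floor. GNAS was 1.95 as a mean over its probe sets. The number of genes called, 1 with the settings reported, was 0 with a floor of 1, with probe sets at or above the floor on all arrays, with a mean over probe sets, on linear intensities and with failing 1a and 1b averaged (unadjusted p under 0.05 in 140, 150, 131, 165 and 98 genes), 2 with 75th percentile scaling, 3 without the intensity trend, 5 without the filter, and from 0 to 13 with 1 array left out (13 without failing 2a).

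Arrays numbered 1 and 2 did not deviate together across groups (r = 0.012 over 1449 genes). With so few arrays, this value cannot tell whether arrays of the same number shared more than the number. With that number as a replicate block 1 gene was called, and 226 of 1449 genes had an unadjusted p under 0.05 in limma. GNAS had 0.78 ± 0.17 in that fit (SE, unadjusted p = 0.0089, adjusted p in limma = 0.241).

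Several other pathway genes changed sign. GNG5 was −0.050 and PPP1R14B −0.74 as means over probe sets. With 75th percentile scaling GNB2 was −0.19, PKIA −0.079 and PPP1R14B −0.085, and with quantile normalization PPP1R14B was −0.038. With failing 1a and 1b averaged GNB2 was −0.39, CAP2 0.0089, DGKA 0.16, NR3C2 0.10 and PPP1R14B −0.031. With the replicate block GNB2 was −0.33, DGKA 0.0099 and NR3C2 0.077. On linear intensities the differences were 13.5 for CAP2, 247 for DGKA and 31.1 for NR3C2. Leaving out 1 array gave from −0.81 to 0.85 for GNB2, −1.03 to 0.31 for CAP2, −0.15 to 0.31 for PKIA, −1.02 to 0.57 for DGKA, −0.21 to 0.21 for NR3C2, −2.68 to 0.16 for PPP1R7, −0.054 to 0.42 for PPP1R14B and −0.15 to 1.41 for PLN. The cause of these changes was not tested. PRKAR1A and GNB2 had no value with a floor of 100, nor PPP1R1A, ADCY2 and PPP1R7 when all arrays had to reach the floor. AGTR1 had none in that last setting, as a mean over probe sets, without the intensity trend or with the replicate block.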
